A study of Gorilla gorilla gorilla with 14 samples.

Results

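Open chromatin of neurons (N) was compared with that of apical radial glia (aRG), the stem cells of the developing cortex from which neurons descend. Flow cytometry was used to sort both from cerebral organoids of the gorilla, brain-like tissues grown in culture from pluripotent stem cells. The comparison took the 4 N libraries and the 3 aRG libraries, 7 of the 14 libraries of the series, as their labels name them. The other 7 libraries, 2 of basal radial glia (bRG) and 5 of basal intermediate progenitors (bIP), served only to estimate the spread and as levels for orientation. All groups came from 1 induced pluripotent stem cell line, GC1, in week 8 of culture, and shared the same ATAC-seq protocol with a reversal of crosslinks after transposition. No genetic change or drug treatment is named for any group. The N libraries are labelled as BCL11B+ neurons, so BCL11B may have served in the sort, and the markers of the aRG gate are not given. By the library numbers in the labels, aRG replicates 1 and 2 and N replicates 1 and 2 form a first series, and aRG replicate 3 and N replicates 3 and 4 a second. Whether the libraries of a cell type stem from different cultures is not given in the labels. The p-values therefore rest on the spread between samples that may be technical replicates.

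Apical radial glia are epithelial cells that divide at the ventricular surface. Their state is held by SOX and PAX transcription factors and by Notch signalling, which acts through HES genes to repress proneural factors. When Notch signalling falls, proneural and NEUROD factors come up, the cell leaves the cycle, often after a round of division as an intermediate progenitor, and the daughter cells grow axons and make synaptic proteins. REST, a repressor present in stem cells, keeps many neuronal genes shut until this point. ATAC-seq reads how open DNA is to a transposase, which is high at active promoters and enhancers. It does not measure transcription.

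The count table held 204249 regions with a position in the gorilla genome (gorGor6), of which 200931 were tested. The 7 libraries held 14416471 to 26660427 counts. Levels are given as CPM, counts scaled to the TMM-adjusted size of the library. Promoter regions, those listed within 1000 bp of their gene, took 37.8% to 38.9% of counts in aRG and 30.4% to 39.1% in N, where N replicate 3 had the lowest share and N replicate 2 the highest. aRG replicates 1 and 2 were nearly as close as sampling noise allows (chi-square per degree of freedom 1.08, against 3.42 to 12.2 for the other pairs within the 2 groups). They were kept as 2 samples. A fit with them summed, and bIP replicates 1 and 2 summed likewise, is given as an alternative. Only 130 tested regions lay on chromosome X. All adjusted p-values are from edgeR's quasi-likelihood test with Benjamini-Hochberg adjustment over all tested regions, and a region was called at an adjusted p under 0.05.

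Most accessible regions differed between the stem cells and the neurons. Of 200931 regions, 133336 were called, 66.4% of those tested. In N 74624 regions were higher, 37.1% of those tested, and 58712 were lower, 29.2%. A difference of at least 2-fold was found in 65009 higher regions (32.4%) and 43793 lower regions (21.8%). Regions higher in N stood at a median of 3.28 CPM in N and 0.738 CPM in aRG, and regions lower in N at 1.35 CPM in N and 4.70 CPM in aRG. In 86.1% of the higher and 87.5% of the lower regions the N libraries did not overlap the aRG libraries. These regions were called from the same libraries, so a high share is largely given by the choice. With 1 promoter region for each of 19305 genes, called or not, all N libraries lay above all aRG libraries in 2790 and below them in 6655. The excess of higher calls was not stable. It was absent without N replicate 3 (67892 higher and 68931 lower regions), without aRG replicate 2 (62036 and 62236), with no filter (67329 and 67818) and with the closest replicates summed (62138 and 62174). At 2-fold and more, higher regions outnumbered lower ones in all 20 alternatives, with 54308 against 51774 under loess offsets.

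With TMM scaling, the balance between gain and loss changed with distance from genes. Of 15248 regions that cover the listed start of a gene, 11.5% were higher and 36.5% lower in N, with a median log2 difference of −0.29. From 1 to 10 kb away 36.3% were higher and 29.4% lower, and beyond 100 kb 43.3% were higher and 27.4% lower, with a median of 0.50. Over all distal regions, those beyond 1000 bp, 39.5% were higher and 28.4% lower, and 34.7% were higher and 22.5% lower by at least 2-fold. With 1 promoter region for each of 19305 genes, 3139 promoters (16.3%) were higher and 6812 (35.3%) lower, and at 2-fold and more the shares were 12.3% and 14.6%. This split at promoters depended on the scaling. Loess offsets, which remove any trend of the difference with abundance, gave 7885 higher and 5415 lower promoter regions, against 3524 and 7209 with TMM. Over all regions loess offsets gave 69385 higher and 66597 lower. The classes of distance were counted with TMM alone. Against a fold of 1.5 (glmTreat) 43.1% of called promoter regions were higher, against 32.8% without that bound. Differences at single promoters stand beside a median of −0.26 over all promoters.

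**Figure D1:**
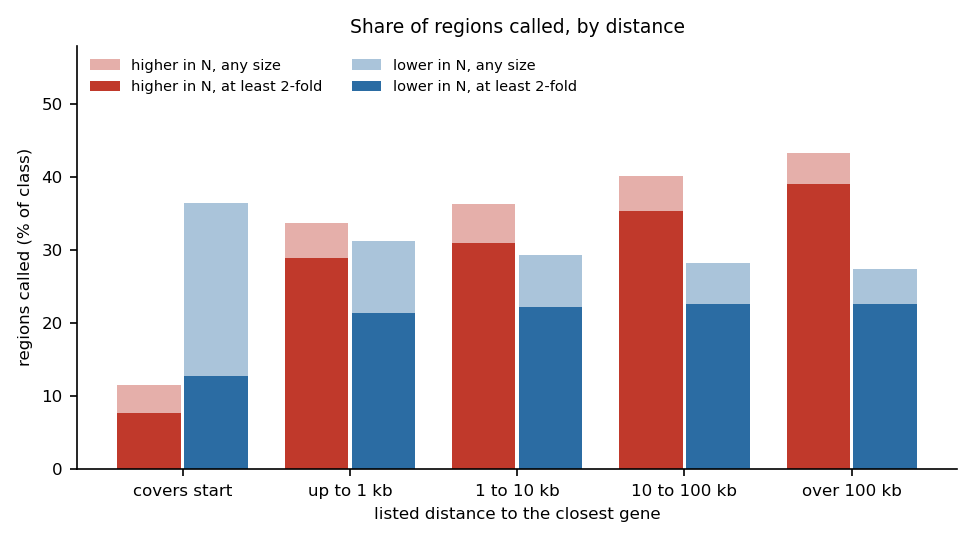
Share of tested regions called higher (red) or lower (blue) in N, as a percentage of the regions in each class of listed distance to the closest gene. Pale bars show all calls and full bars those of at least 2-fold. With TMM scaling, lower calls dominate where a region covers the start of a gene, at 36.5% against 11.5%. Higher calls dominate beyond 100 kb, at 43.3% against 27.4%. With loess offsets 7885 promoter regions were higher and 5415 lower.

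Promoters of the genes that define radial glia were far less open in N. The promoter of SOX2, the transcription factor that holds neural stem cells in their state (chromosome 3, 178123597 to 178125650), stood at 58.1, 61.1 and 58.7 CPM in aRG replicates 1 to 3 and at 8.15, 8.63, 11.6 and 9.99 CPM in N replicates 1 to 4. Every N library was below every aRG library, and the log2 difference was −2.71 ± 0.18 (SE, adjusted p = 9.3e-12). A second SOX2 region, 371 bp from the start, had 9.40 CPM on average in aRG against 8.10 CPM in N. There the groups overlapped and the test did not pass (log2 −0.24 ± 0.20, adjusted p = 0.287). PAX6, which specifies cortical radial glia, had 14.7 ± 1.02 CPM in aRG (SD, n = 3) against 4.47 ± 0.610 CPM in N (n = 4), a log2 difference of −1.78 ± 0.21 (adjusted p = 7.2e-08). HES1, the main Notch effector, stood at 59.8 ± 4.28 and 14.3 ± 1.68 CPM (log2 −2.10 ± 0.19, adjusted p = 9.5e-10). The promoters of the intermediate filament genes NES (log2 −1.72 ± 0.18) and VIM (−1.50 ± 0.19) and of the glutamate transporter gene SLC1A3 (−1.42 ± 0.18) were lower by a like amount. HOPX, known from outer radial glia, differed less (−0.70 ± 0.21, adjusted p = 0.00498), and its call was lost with loess offsets (−0.26, adjusted p = 0.19). In bulk data, fewer cells with an open region and less cutting per cell cannot be told apart.

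Neuronal markers included promoters with large gains in N and promoters that were open in both cell types. NEUROD2, a transcription factor of excitatory neurons (chromosome 5, 42347377 to 42348903), stood at 2.57, 2.31 and 6.86 CPM in the aRG libraries and at 40.7, 44.2, 25.0 and 44.6 CPM in the N libraries. The groups lay far apart, with aRG replicate 3 the highest of its group and N replicate 3 the lowest of its own, and the log2 difference was 3.33 ± 0.28 (adjusted p = 3.2e-10). MYT1L, which represses non-neuronal genes in neurons, stood at 6.21, 5.74 and 8.24 CPM in aRG and 47.7, 38.8, 32.8 and 53.9 CPM in N (log2 2.66 ± 0.21, adjusted p = 9.2e-11), without overlap. In bIP the mean at MYT1L was already 45.7 CPM. STMN2, a regulator of microtubules in growing axons, was higher by 2.16 ± 0.21 on the log2 scale and NEUROD6, a partner of NEUROD2, by 1.66 ± 0.19. TBR1, of deep-layer neurons, was higher by 0.79 ± 0.19 (adjusted p = 0.00084), a call kept in 16 of 20 alternatives. It was lost, among others, without aRG replicate 2 (0.54, adjusted p = 0.0578). RBFOX3, the gene of the neuronal nuclear antigen NeuN, was higher by 1.38 ± 0.35 at a low level, 0.520 CPM in aRG and 1.39 CPM in N.

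BCL11B, which gives the N label its name, did not pass the test at the start of the gene. The region over its start (chromosome 14, 80017120 to 80017948) stood at 20.9, 22.4 and 15.7 CPM in aRG and 21.8, 23.2, 14.7 and 21.6 CPM in N. The groups overlapped and the log2 difference was 0.07 ± 0.19 (adjusted p = 0.758), with either sign among the alternatives. A second region, 833 bp from the start, was lower in N, at 14.4 CPM on average in aRG against 8.46 CPM (log2 −0.83 ± 0.18). Of the 6 distal regions listed with BCL11B 4 were higher in N and none lower, among them one 13013 bp away that had 0.241 CPM in aRG against 1.90 CPM in N (log2 3.06). SYT1, the calcium sensor of synaptic vesicles, had 56.0 ± 3.68 CPM in aRG against 60.7 ± 13.3 CPM in N (log2 0.10 ± 0.19, adjusted p = 0.665), and SNAP25, a vesicle fusion protein, stood at 36.1 ± 5.59 and 46.3 ± 8.88 CPM (log2 0.31 ± 0.17, adjusted p = 0.115). With loess offsets both passed as higher (0.68 and 0.86), as BCL11B did (0.52). MAPT, the gene of tau, was higher by 0.65 ± 0.22 (adjusted p = 0.01), a call kept in 11 of 20 alternatives. It was lost, among others, without aRG replicate 2 (0.50), N replicate 2 (0.42) or N replicate 4 (0.49), and with DESeq2 (0.53). NEUROG2, DCX and ACTL6B had no promoter region in the table.

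**Figure D2:**
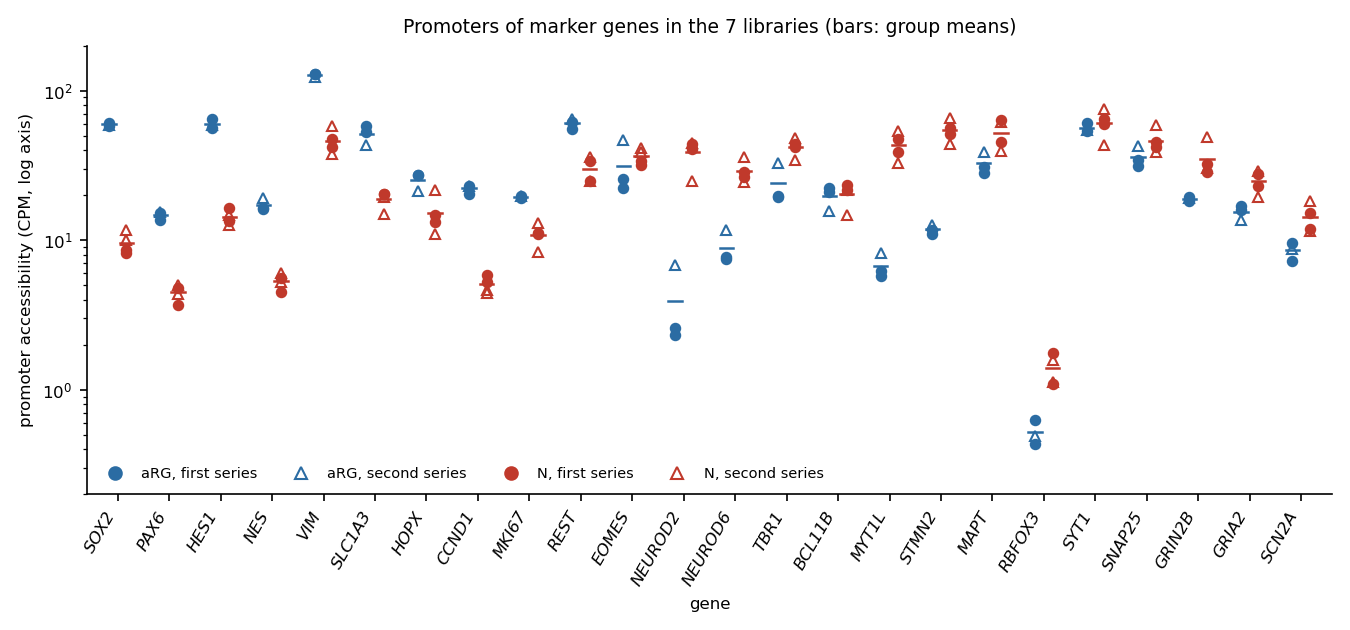
Promoter accessibility of marker genes in CPM, on a log axis, in each aRG library (blue) and each N library (red). Filled circles are libraries of the first series, open triangles those of the second, and short bars group means. SOX2 falls from about 59.3 CPM in aRG to 9.60 CPM in N and NEUROD2 stands at 3.91 CPM in aRG against 38.6 CPM in N, while the groups overlap at BCL11B, SYT1 and SNAP25.

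The 12 promoters of protein-coding genes with the smallest p among those higher in N by 2-fold included those of a calcium exchanger, an NMDA receptor subunit and a neuropeptide precursor. SLC8A1, a sodium-calcium exchanger that removes calcium from the cell, stood at 1.34, 0.998 and 1.62 CPM in aRG and 28.2, 22, 21.4 and 42.7 CPM in N (chromosome 2A, 56738640 to 56740291). All N libraries were far above all aRG libraries (log2 4.39 ± 0.30, adjusted p = 1.2e-11). GRIN1, the obligate subunit of NMDA receptors, stood at 2.73, 4.05 and 4.85 CPM in aRG and 27.2, 32.6, 25.2 and 42.6 CPM in N (log2 3.03 ± 0.24). SLC41A2, a magnesium transporter, was higher by 4.49 ± 0.29 on the log2 scale, from 0.459 ± 0.199 CPM in aRG to 10.6 ± 2.21 CPM in N. PDYN, the precursor of dynorphin peptides, had 1.98 ± 0.546 CPM in aRG against 16.8 ± 4.30 CPM in N, and RASGRF1, which links calcium to Ras, at 3.37 ± 0.384 and 26.6 ± 7.78 CPM. Both were still low in bIP, at a mean of 2.32 and 2.47 CPM, as were SLC41A2 (1.28 CPM), SLC8A1 (2.08 CPM) and the adhesion gene TENM2 (1.91 CPM). The others of the 12 were PTPRN, a protein of dense-core vesicles, TENM2, the bile acid transporter gene SLC10A1, the ephrin receptor gene EPHA10, SLN, a regulator of the calcium pump, MYT1L and TMEM130, with log2 differences from 2.66 (MYT1L) to 4.37 (SLC10A1).

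Among the 12 promoters with the smallest p on the lower side were 3 of transcription factors of neural progenitors, SOX2, SOX21 and RFX4. SOX21 stood at 41.6, 45.2 and 46.6 CPM in aRG and 5.61, 7.88, 6.87 and 6.24 CPM in N (log2 −2.78 ± 0.18). RFX4, a factor of ciliated and radial glial cells, stood at 53.0, 60.3 and 50.6 CPM in aRG and 4.60, 6.66, 8.5 and 6.48 CPM in N (log2 −3.16 ± 0.21). ZFP36L1, which promotes the decay of messenger RNAs, stood at 46.5 ± 3.76 and 5.43 ± 2.04 CPM (log2 −3.22 ± 0.22). RLBP1, a retinaldehyde-binding protein of glia, was lower by −4.06 ± 0.28, and DCT, an enzyme of melanin synthesis, by −3.78 ± 0.26. At DCT, RLBP1, DNAH11 and the olfactory receptor gene OR5A2, aRG replicate 3 was the lowest of its group, with 24.7 CPM against 53.1 and 50.8 CPM at DCT, and still far above every N library, of which N replicate 2 was the highest at DCT with 3.67 CPM. SLFN12, MPPED2, A2ML1 and KIAA1217 completed the 12.

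Gene lists by role are described by counts and medians, beside the 16.3% of promoters higher, 35.3% lower and the median log2 of −0.26 over all 19305 genes. Members and lists were chosen with earlier results of these data known, so their shares describe the lists and are no independent evidence. Of 23 measured radial glia transcription factors 19 were lower in N and 1, SIX3, was higher (median −1.04). LHX2 (−0.36) and FEZF1 (−0.02) were among those that did not pass. Of 22 structural and metabolic genes of radial glia 19 were lower and none higher (median −1.39), led by SLCO1C1, a thyroid hormone transporter (10.4, 10.5 and 8.43 CPM in aRG and 0.819, 1.09, 1.2 and 0.328 CPM in N, log2 −3.44 ± 0.27), and the growth factor gene PDGFD (−2.44). Against the median of all promoters, the medians of these lists lay between −0.78 and −0.59 and between −1.13 and −1.0 over 4 scalings (TMM, DESeq2 size factors, library totals and loess offsets).

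Signalling and cell cycle promoters were lower too, with smaller differences. Among 14 measured Notch pathway genes 8 were lower, with HES1 and HEY2 (−1.57) in front, and 2 were higher, both genes of Notch ligands, DLL3 (0.86 ± 0.21) and DLL4 (0.76 ± 0.21). DLL3 stood at 8.93, 9.61 and 9.36 CPM in aRG and 18.2, 19.1, 10.2 and 19.1 CPM in N. Its N replicate 3 lay close to the aRG libraries, without overlap. Of 36 genes of growth factor and morphogen signalling 28 were lower and none higher (median −0.79), such as BMP7 (−1.66) and the Wnt receptor gene FZD2 (−1.53). In the Hippo pathway 9 of 15 were lower, led by the kinase gene LATS2 (−1.83) and the target gene CCN1 (−1.44). Of 34 cell cycle genes 24 were lower and none higher (median −0.61). CCND1, the cyclin of the G1 phase, was lower by far the most, at 20.5, 23.0 and 23.0 CPM in aRG and 5.26, 5.84, 4.66 and 4.46 CPM in N (log2 −2.14 ± 0.18), while MKI67, a marker of proliferation, differed by −0.85 ± 0.18. With loess offsets 16 cell cycle promoters were lower and 7 higher.

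Apical junction and polarity genes were divided. Of 21 measured, 10 were lower and 2 higher, and the median (−0.29) was near that of all promoters, −0.03 to 0.15 relative to it over the 4 scalings. With loess offsets 9 were higher and 7 lower. The lower ones included CRB2, of the apical Crumbs complex, at 64.9, 67.1 and 54.8 CPM in aRG and 13.5, 14.9, 14.7 and 16.1 CPM in N (log2 −2.11 ± 0.18), and SHROOM3, which constricts the cell apex (−1.94). The higher ones were E-cadherin, CDH1 (0.86 ± 0.25), a call lost without N replicate 4 (0.41, adjusted p = 0.0777), and AFDN (0.75), lost in 13 of 19 alternatives.

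Of 31 measured promoters of neuronal transcription factors 5 were higher in N (NEUROD2, MYT1L, ST18, NEUROD6 and TBR1), a share of 16.1% beside 16.3% of all promoters, and 17 were lower (median −0.49). The lower ones included genes of cortical projection neurons. LMO3, a LIM-domain cofactor, stood at 88.1, 84.6 and 67.6 CPM in aRG and 16.8, 13.5, 14.7 and 20.7 CPM in N (log2 −2.30 ± 0.19), with no overlap. NR4A2, a nuclear receptor of subplate and deep-layer neurons, was lower by −1.38, and FEZF2, which specifies subcerebral neurons, had 82.5 CPM on average in aRG against 34.8 CPM in N (−1.29). With loess offsets the list split evenly, 12 higher and 12 lower. Of 358 distal regions listed with these genes 136 were higher by 2-fold (38%) and 95 lower (26.5%). These shares were near the 34.7% and 22.5% of all distal regions.

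Genes of the neuronal cytoskeleton, of RNA binding and of axon guidance were near the median of all promoters, with a few large exceptions. Among 25 microtubule and filament genes 5 were higher (STMN2, INA, NEFL, ANK3 and MAPT) and 4 lower, against 21 and 1 with loess offsets. INA, a neurofilament subunit, stood at 5.93, 5.93 and 6.52 CPM in aRG and 22.1, 33.2, 19.7 and 32.9 CPM in N (log2 2.13 ± 0.22), whereas STMN1 (−0.79) and the axonal motor gene KIF1A (−0.72) were lower. Among 15 RNA-binding protein genes 4 were higher, with the splicing regulators CELF3 (1.55 ± 0.20) and SRRM4 (1.41 ± 0.19) in front, and 3 were lower, with CELF2 (−0.80) and NOVA1 (−0.57). With loess offsets 10 of these were higher and 1 lower. Of 43 axon guidance genes 5 were higher and 16 lower, a balance that loess offsets turned (17 higher and 7 lower). Receptors and ligands were found on both sides, DCC, the netrin receptor (1.07), and SLIT1 (1.26) among the higher and SEMA6D (−1.07), SEMA6A (−1.03) and ROBO1 (−0.58) among the lower. ROBO1 no longer passed with loess offsets (−0.02).

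Lists of synaptic and excitability genes, chosen with earlier results of these data known, held more higher promoters than the 16.3% of all promoters. Of 30 voltage-gated channel genes 13 were higher and 3 lower (median 0.26), of 30 glutamate and GABA receptor genes 9 and 3 (median 0.12), of 33 synaptic vesicle genes 8 and 4 (median 0.13), and of 24 genes of calcium handling and calcium to Ras signalling 9 and 8 (median −0.16). Relative to all promoters the medians of these 4 lists were above 0 under each of the 4 scalings, 0.53 to 0.57 for channels, 0.36 to 0.39 for receptors, 0.38 to 0.53 for vesicle genes and 0.10 to 0.26 for calcium genes. The counts moved more: 8 channel promoters were higher with DESeq2 size factors, 26 with loess offsets and 5 with the closest replicates summed, while 2799, 7533 and 2413 of all promoters were. With loess offsets the counts were 20 higher and 1 lower for receptors, 25 and 4 for vesicle genes and 14 and 4 for calcium genes. Many single differences are small, such as SCN2A, a sodium channel (0.73 ± 0.20). Its call was kept in 14 of 20 alternatives and lost, among others, without aRG replicate 2 (0.44) or N replicate 4 (0.42). A second SCN2A region, 891 bp from the start, was higher by 2.11 ± 0.40 at a low level, 0.544 CPM in aRG and 2.48 CPM in N.

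Large gains within these lists were found at a subset of genes. Of the NMDA receptor genes GRIN1 differed by 3.03 and GRIN2B by 0.81 ± 0.19. GRIA2, of AMPA receptors, differed by 0.64 ± 0.21 in its region 778 bp from the start. That call was kept in 10 of 20 alternatives. It was lost, among others, without aRG replicate 2 (0.55), aRG replicate 3 (0.44) or N replicate 4 (0.43). A second GRIA2 region, over the start, had 14.3 ± 1.35 CPM in aRG against 30.1 ± 6.28 CPM in N. It was higher by 1.06 ± 0.19 (adjusted p = 3.3e-05) and was called in all 20 alternatives. SCN1A, a sodium channel of mature neurons, was higher by 1.93 and the calcium channel subunit CACNA2D3 by 1.29. Among the vesicle genes SCG3, a granin of secretory granules, stood at 5.06, 6.67 and 6.08 CPM in aRG and 27.0, 25.0, 20.1 and 30.4 CPM in N (2.11 ± 0.20), and UNC13A, which primes vesicles, was higher by 1.84. On the lower side were the receptor genes GRM8 (−1.16) and GABRG1 (−0.69), the channel gene KCNH5 (−0.84), CADPS2 (−1.14) and a low region at DNM1 (2.31 and 0.546 CPM). Synaptic adhesion genes were mixed, with 7 of 34 higher, led by TENM2 (3.34 ± 0.24) and DSCAML1 (1.58), and 12 lower, such as the limbic adhesion gene LSAMP (−1.19) and LRRTM3 (−1.21). With loess offsets the balance was the other way, 16 higher and 8 lower.

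REST itself was more open in aRG, at 55.5, 61.6 and 64.1 CPM, than in N, at 25.0, 33.6, 24.7 and 35.9 CPM (log2 −1.06 ± 0.18, adjusted p = 1.2e-05). Of 21 genes of the REST complex and of the BAF chromatin remodeller, whose subunits are exchanged when neurons form, 11 were lower, also HDAC1 (−0.81), and 1 was higher (median −0.49). That gene, SMARCD3, encodes a BAF subunit and stood at 14.5, 15.2 and 17.4 CPM in aRG and 37.0, 48.9, 24.5 and 39.8 CPM in N (log2 1.24 ± 0.24), without overlap. ACTL6A, the subunit of the progenitor complex, differed by −0.49. With loess offsets 9 promoters of this list were higher and 5 lower. Housekeeping promoters served as a background: 4 of 9 were lower and none higher (median −0.41), and 5 were higher and 1 lower with loess offsets.

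**Figure D3:**
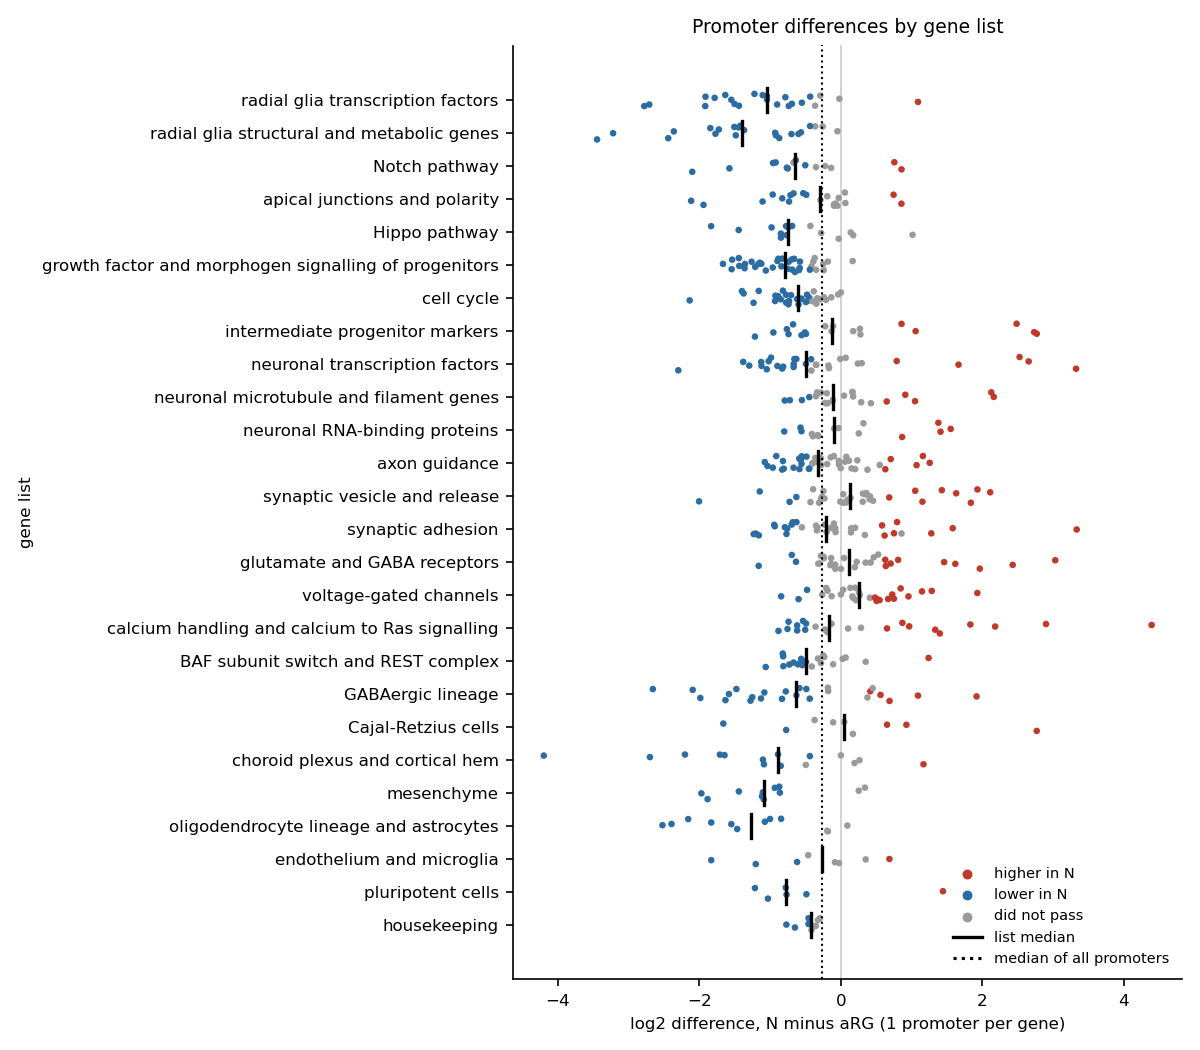
Log2 difference between N and aRG at 1 promoter per gene for the members of 26 gene lists. Each point is a gene, red where higher in N, blue where lower and grey where it did not pass. Thick bars are list medians and the dotted line the median of all promoters, −0.26. Radial glia lists lie to the left, with medians of −1.04 and −1.39, and voltage-gated channels furthest to the right, at 0.26.

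Intermediate progenitor markers were not uniformly higher or lower. EOMES, the defining factor of these cells, stood at 22.4, 25.7 and 46.4 CPM in aRG and 31.9, 33.6, 38.9 and 41.5 CPM in N. Replicate 3 of aRG was above every N library, the groups overlapped, and the test did not pass (log2 0.18 ± 0.17, adjusted p = 0.375; 0.77 with loess offsets, which passed), while bIP stood at 83.0 CPM. Of 19 markers 5 were higher in N, with NHLH1 (2.74 ± 0.25) and NHLH2 (2.77 ± 0.28), proneural factors, in front, and 8 lower, with MFAP4 (−1.21) and NEUROG1 (−0.95). Loess offsets gave 9 higher and 4 lower. The summed level of the 19 promoters was 455, 504 and 515 CPM in aRG and 387, 473, 342 and 474 CPM in N.

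Lists of cell types outside the sort were checked in the same way. Promoters of glial and non-neural lineages were lower in N: 9 of 12 of oligodendrocytes and astrocytes, 9 of 11 of mesenchyme, 10 of 15 of choroid plexus and cortical hem and 5 of 6 of pluripotent cells, with 0, 0, 1 and 1 higher. GFAP, of astrocytes and radial glia, stood at 40.2, 45.1 and 40.6 CPM in aRG and 7.45, 11.5, 6.34 and 4.22 CPM in N. KCNJ13, a potassium channel of the choroid plexus, was at 7.96 CPM on average in aRG and 0.409 CPM in N (log2 −4.20 ± 0.31), OTX2 lower by −2.20 and FOXC1, of mesenchyme, by −1.97. Summed over its list, choroid plexus and hem stood at 156 to 193 CPM in aRG and 87.2 to 119.9 CPM in N. Mesenchyme stood at 177 to 195 and 82.4 to 106 CPM, and glia at 131 to 145 and 55.9 to 68.2 CPM. Housekeeping promoters, summed likewise, were also lower in N, at 441 to 473 and 256 to 409 CPM. Of the GABAergic lineage 16 of 25 were lower and 5 higher, with summed levels of 483 to 531 and 268 to 361 CPM. The patterning genes GSX1 (−2.66) and MAF (−1.98) were lower, whereas SLC32A1, the vesicular GABA transporter, was higher (2.77, 2.99 and 4.27 CPM in aRG and 10.6, 14.5, 11.6 and 16.1 CPM in N, log2 1.92 ± 0.23). GAD1 (0.42, adjusted p = 0.0331) lost its call when any 1 of the 7 libraries was left out. In the Cajal-Retzius list 3 of 9 were higher, NHLH2, PCP4 and CALB2, RELN was level (19.6 and 18.0 CPM) and CXCR4 was lower. For endothelium and microglia 3 of 8 were lower and TIE1 was higher at a low level (0.991 and 1.69 CPM), lost in 15 of 19 alternatives. No measured member of these lists was at 0 in any N or aRG library, and the part of such cells in the differences was not tested.

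The balance of distal regions differed between gene lists. Of 193 distal regions listed with synaptic vesicle genes 47.7% were higher in N by at least 2-fold and 12.4% lower, beside 34.7% and 22.5% of all distal regions. The shares were 46.2% and 16.5% of 333 regions for glutamate and GABA receptors and 44.3% and 15.5% of 348 for voltage-gated channels. The balance was the other way for radial glia transcription factors, with 11.8% higher and 45.8% lower of 153 regions, and for growth factor signalling, with 13.5% and 38.8% of 325. Distal regions were also counted around 1989 of the 2372 genes with a promoter higher by 2-fold. There 43.6% were higher and 16.2% lower by 2-fold. Around 2288 of the 2818 genes with a promoter lower by 2-fold the shares were 27.2% and 30.2%. They were 32.9% and 21.6% around 9647 genes whose promoter changed by less than 2-fold or was not called. Regions of 1 gene share their surroundings and are not independent.

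At some marker loci most distal regions moved one way, beside 39.5% higher and 28.4% lower among all distal regions. At MYT1L, 9 of 10 distal regions were higher in N and none lower. The region at 61015 bp had 0.223 CPM in aRG against 3.68 CPM in N. At NEUROD2, 6 of 7 were higher, each by at least 2-fold, with log2 4.17 at 12263 bp. At PAX6, 10 of 14 distal regions were lower and 1 higher, and the one at 64404 bp had 20.8 CPM in aRG against 1.77 CPM in N. All 4 distal regions of SLC1A3 and both of SOX2 were lower, the SOX2 region at 3156 bp from 34.6 to 1.76 CPM (log2 −4.24). STMN2 had 5 higher and 2 lower among 11. At RBFOX3, whose promoter was low, 17 of 37 distal regions were higher and 1 lower. Other marker loci were mixed, such as GRIN2B (8 higher and 6 lower of 20), ROBO1 (10 and 13 of 34) and RELN (6 and 7 of 24). At MKI67, whose promoter was lower, 2 of 4 distal regions were higher and none lower.

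By the number of distal regions the leading names were Y_RNA, Metazoa_SRP, U3 and U6, each shared by many gene copies and so not 1 locus, the pseudogenes KRT8P44 (38 of 71 higher by 2-fold) and ST13P20 (27 of 56 lower by 2-fold), AC073873.1 and AUTS2. AUTS2, a gene of neuronal development linked to neurodevelopmental disorders, had 44 distal regions higher and 34 lower by at least 2-fold among 126, beside 34.7% and 22.5% of all distal regions, and its promoter was lower (−0.78). Genes with at least 10 distal regions and the largest shares moving one way were picked after their values were seen. They were CHST8 (16 of 17 higher by 2-fold) and RYR2, a calcium release channel (10 of 11), on the higher side, and on the lower side CXCR4, a chemokine receptor that guides migrating cells (11 of 11). The CXCR4 promoter stood at 51.1, 53.6 and 66.4 CPM in aRG and 15.6, 18.3, 19.8 and 22.3 CPM in N (log2 −1.66 ± 0.16), without overlap.

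**Figure D4:**
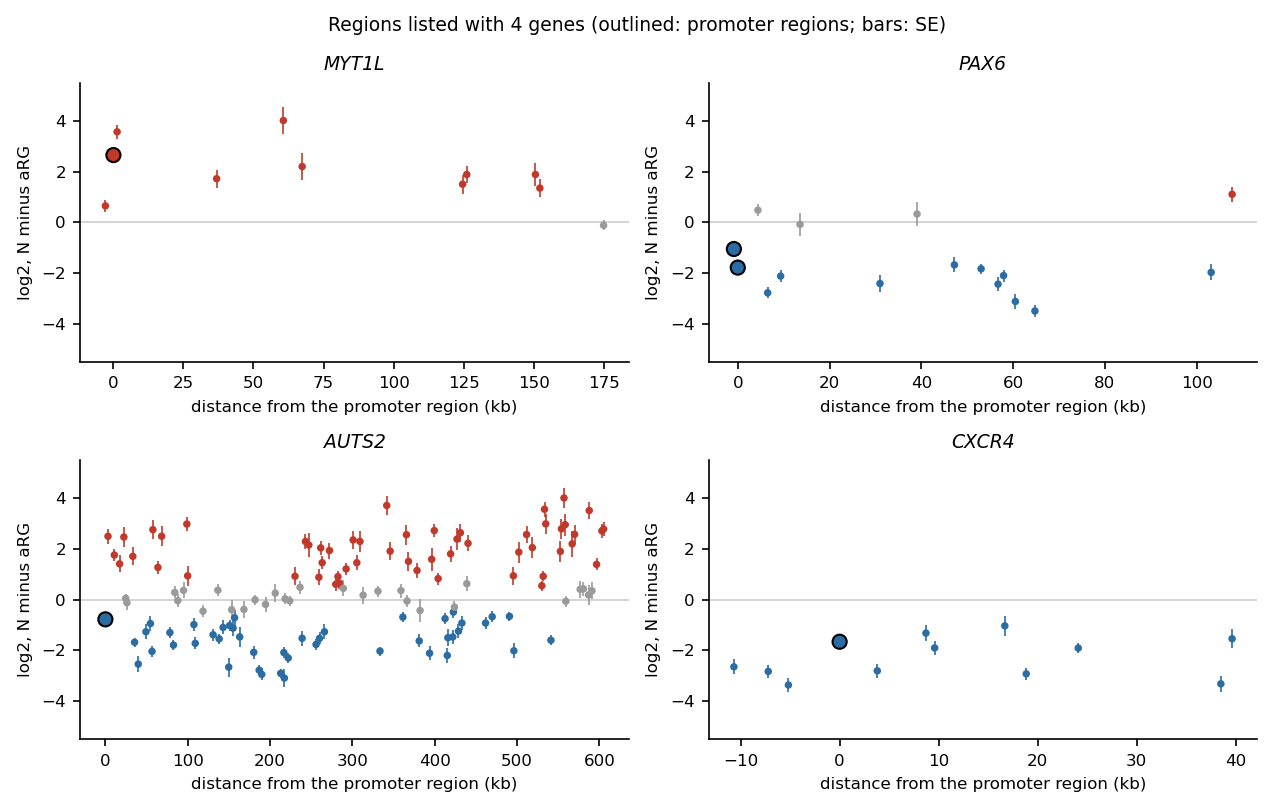
Log2 difference between N and aRG, with its SE, for every tested region listed with MYT1L, PAX6, AUTS2 and CXCR4, plotted against the distance from the gene's promoter region in kb. Red regions were higher in N, blue ones lower and grey ones did not pass, and large outlined points are promoter regions. At MYT1L 9 of 10 distal regions are higher, at CXCR4 all 11 are lower, and at AUTS2 higher and lower regions lie interspersed.

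Neighbouring regions formed runs. There were 1671 runs of at least 5 consecutive regions all higher by 2-fold, and 583 all lower, with 104 and 31 of at least 10. Of all tested regions 32.4% were higher and 21.8% lower by 2-fold. Whether the runs exceed what these shares alone would give was not tested. The longest higher runs had 20 regions. One spanned 184.4 kb of chromosome 9 (69583189 to 69767563) around GABBR2, a GABA-B receptor gene (median log2 2.74), and the other 706.6 kb of chromosome 11 (39978570 to 40685182) in a cluster of olfactory receptor genes (median 3.07). The longest lower run had 17 regions over 82.5 kb at CXCR4 on chromosome 2B (22834089 to 22916615, median −2.36).

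The distal regions with the smallest p had no neuronal or glial gene as their closest gene. On the lower side the region 7135 bp from MIR3938 (chromosome 3, 55759059 to 55761177) stood at 53.0, 60.3 and 39.9 CPM in aRG and 2.38, 2.99, 2.07 and 1.6 CPM in N (log2 −4.42 ± 0.21, adjusted p = 2e-12). The one 35755 bp from THEM7P had a log2 difference of −4.64. On the higher side the region 14891 bp from RPL21P4 (chromosome 5, 38869923 to 38870736) stood at 0.435, 0.187 and 0.637 CPM in aRG and 16.1, 15.5, 10.9 and 19.1 CPM in N (log2 5.13 ± 0.31, adjusted p = 4.1e-12). In both, the groups were far apart and the level in bIP was intermediate, at 6.06 and 4.90 CPM.

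Both library series hold both cell types, so the comparison could be made within each. Of 192273 regions tested in both, 83730 were called in each series alone, which is 64.4% of the calls of the first and 91.1% of those of the second, and 83309 of them had the same direction. The second series has 1 aRG library, whose spread is taken from the other groups. The difference between N and aRG itself differed between series in 5568 regions, 2.77% of those tested, with 3882 differences smaller, or more negative, in the second series. This count ranged from 1646 without aRG replicate 1 to 16359 without N replicate 4, and it was 1788 with the 7 libraries alone. Of the 121 named promoters, most of which were picked because they were called over both series, so that a shared sign is largely given by the choice, 3 differed between series by the test. NEUROD2 was higher by 4.13 in the first and 2.34 in the second (adjusted p of the difference 0.00883), NHLH1 by 3.35 and 1.94 (0.0490), and MFAP4 lower by −0.65 and −2.0 (0.0275).

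**Figure D5:**
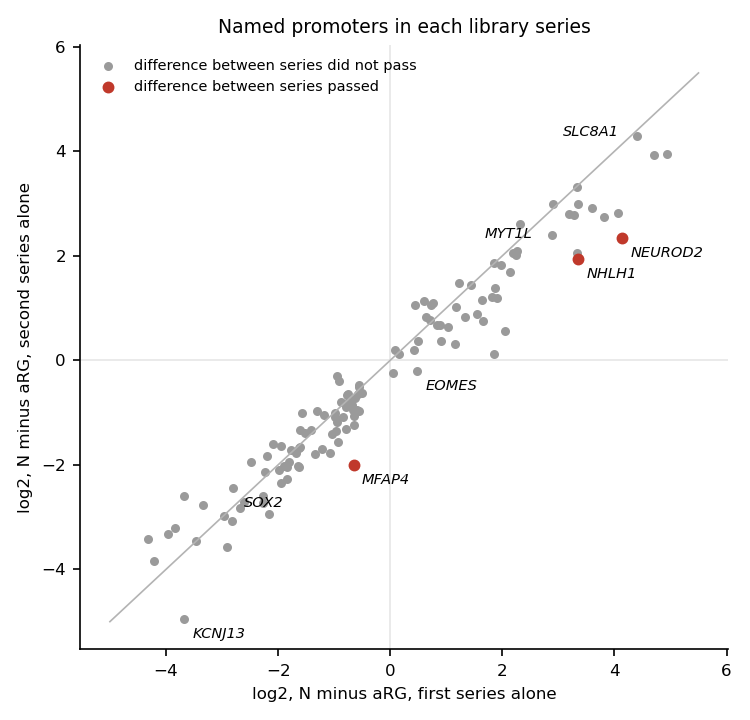
Log2 difference between N and aRG at 121 named promoters in the first series (x axis) and in the second (y axis), each fitted alone, with the line of equality. Red points are the 3 promoters whose difference between series passed the test, NEUROD2, NHLH1 and MFAP4. EOMES is one of 2 promoters with opposite signs.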

How the data were processed

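The authors deposited 1 table of raw counts, whole numbers of reads in each region for each library, per the file headers. Each row carries a deposited closest gene and distance. The submitters' processing notes name bcl2fastq 2.20.0 and MACS2, and give no aligner, counter or shift of reads for the transposase. The deposited peak lists were not used.

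Of 218080 rows, 13823 without a gorGor6 position (all counts 0) and 8 repeats were left out. Starts were raised by 1, since the region names count from 0. Counts were scaled by TMM and filtered with filterByExpr, and a quasi-likelihood model (edgeR 4.0.16, R 4.3.3) with terms for 4 cell types and for library series used all 14 libraries (9 residual degrees of freedom). A log2 difference includes the series term. The listed distance was taken as that to the gene's start: for 99.8% of 20252 genes with at least 3 regions it pointed to 1 common position, within 1 bp. A gene's promoter is its region within 1000 bp with the highest total count. Protein-coding symbols came from a RefSeq table of another assembly. Exon and intron positions were not used here. A floor of 3 counts equals 0.117 to 0.204 CPM per library and covers counting error only. The script was tested on simulated data.

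Named genes are marker genes, the 12 promoters and 6 distal regions per side with the smallest p (at least 2-fold, groups separate, at least 2 CPM), 2 members per list and side, and the 6 genes per side with most distal calls. Others were chosen after their values were seen. Some genes that this rule names are not reported here. Members and lists were chosen with earlier results of these data known. Alternatives included other scalings, filters, DESeq2 1.42.0, a replicate block, promoter widths and leaving out each library.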

Additional observations from a re-analysis of the deposited data

Results flagged for a closer look

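Differences between library series were found by the test at 3 of the 121 named promoters, beside 2.77% of all tested regions. The log2 difference between N and aRG at NEUROD2 was −1.77 in the second series relative to the first (4.13 and 2.34, adjusted p = 0.00883). At NHLH1 it was −1.38 (adjusted p = 0.0490) and at MFAP4 −1.32 (adjusted p = 0.0275). aRG replicate 3 is the only aRG library of the second series, and at NEUROD2 it stood at 6.86 CPM against 2.57 and 2.31 CPM.

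In 7 of 133 named regions 1 of the 4 N libraries lay apart from the others beyond Dixon's critical value, where chance flags about 1 in 20 groups. N replicate 4 was high at the RASGRF1 promoter (38.1 CPM, others 21.4 to 23.5), at the SALL4 promoter (24.7 CPM, others 18.2 to 19.0) and in the distal region near AC090337.1 (30.6 CPM, others 16.6 to 18.8). It was low in the distal region near SMC4P1 (0.845 CPM, others 1.64 to 1.70). N replicate 3 was low at DLL3 (10.2 CPM, others 18.2 to 19.1), N replicate 1 at FOXC2 (1.13 CPM, others 1.49 to 1.55), and N replicate 2 was high at CSPG4 (6.12 CPM, others 4.37 to 4.56).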

How the results depend on the processing

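Of 133 named regions 128 were called, and their alternative values kept direction and call in 2482 cases, lost the call in 122 (32 regions), gained it in 13 (4 regions) and changed sign in 27 (5 regions, 4 of them not called). With at least 10 CPM in 2 libraries, 17030 regions were higher and 16881 lower, 13994 and 12310 of them distal, and 4340 promoter regions were lower; fewer regions were tested. Promoter regions higher numbered 7885 with loess offsets and 2277 in the second series alone, where 4163 were lower. Against 1.5-fold 3517 were lower, and within 5000 bp 11111 were higher and 13733 lower. Regions that differ between series numbered 1788 with the 7 libraries alone and 1646 to 16359 when 1 library was left out.

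Values that changed sign were those of EOMES (−0.0069 with no filter, −0.21 in the second series, −0.070 with closest pairs summed, −0.033 to 0.38 when 1 library was left out), NOVA1 (0.0025 with loess offsets) and RELN (0.062 with library totals, 0.34 with loess offsets, 0.17 at 10 CPM, 0.058 in the first series). BCL11B had −0.051 with DESeq2 size factors and with DESeq2, −0.11 with no filter, −0.056 with 7 libraries, −0.068 with pairs summed and −0.15 to 0.098 when 1 library was left out. SYT1 had −0.022 with DESeq2 size factors and with DESeq2, −0.088 with no filter, −0.043 with 7 libraries, −0.058 with pairs summed and −0.16 to 0.083 when 1 library was left out. The cause was not tested.

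The replicate numbers do not pair the samples: deviations of same-numbered libraries correlated by 0.20, 0.23 and 0.0027, and aRG replicate 3 correlated more with N replicate 4 (0.31). With the number as a replicate block, 61298 regions were higher and 59378 lower of 193519, and BCL11B had −0.15 and SYT1 −0.18. Relative to TMM, the median over all regions shifted by −0.36 with loess offsets, −0.12 with DESeq2 size factors and 0.17 with library totals.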
